A study of Mus musculus with 8 samples.

Results

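The neurotrophins are small secreted growth factors that keep neurons alive and shape synapses, and 7 genes of this family and its receptors were followed here: the ligand genes Bdnf, Ntf3 and Ntf5, the kinase receptor genes Ntrk2 and Ntrk3, and Ngfr and Sort1, which encode a receptor and a sorting protein for the unprocessed ligands. They were taken by gene symbol from the 24883 rows of the deposited expression table, and all 7 had a row. Tissue came from the visual cortex of adult C57BL/6J mice that had received an oligonucleotide by intracortical injection on postnatal day 122 and were sampled on day 129. In the 4 anti-miR-29a samples the oligonucleotide was a locked nucleic acid (LNA) strand complementary to the microRNA miR-29a, and in the 4 scrambled samples it was an LNA strand of scrambled sequence. No uninjected tissue is compared here, so every library comes from injected cortex. Whether each sample is a separate animal is not stated in the labels. The p-values therefore describe the sample-to-sample spread alone, and part of that spread could be technical.

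Neurotrophins are made as longer precursors that are cut to the mature factor. A mature factor binds its own Trk receptor tyrosine kinase, BDNF and NT-4 (the product of Ntf5) binding TrkB (Ntrk2) and NT-3 (Ntf3) binding TrkC (Ntrk3), while all of them bind the p75 receptor (Ngfr), which joins with sortilin (Sort1) to receive the uncut precursors. In the visual cortex BDNF is known for its part in the maturation of inhibition and in the plasticity of the critical period. The microRNA blocked in the treated samples belongs to a family of 3 mature sequences with a common seed, the bases that pair with a target. They are shown, from RefSeq (GRCm38.p6), because the sites described next are matches to that seed, given in capitals (positions 2 to 8).
mmu-miR-29a-3p: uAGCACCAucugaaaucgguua
mmu-miR-29b-3p: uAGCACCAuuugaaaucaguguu
mmu-miR-29c-3p: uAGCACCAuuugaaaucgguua

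The longest annotated 3' UTR of each member (GENCODE M21, mm10) was searched on the transcript strand for TGGTGCT, the complement of that seed. Ntrk3 and Sort1 held 1 match each, and Bdnf (2855 nt searched), Ntf3 (314 nt), Ntf5 (1104 nt), Ntrk2 (5617 nt) and Ngfr (1985 nt) held 0. The match in Ntrk3 lies at chr7:78188865-78188871 on the minus strand, is followed by an A (an 8mer site) and stands in a 3' UTR of 16600 nt. The match in Sort1 lies at chr3:108357666-108357672 on the plus strand, has no A after it and stands in a 3' UTR of 4268 nt. Both are printed with their surroundings, the seed match in capitals, because they are the matches that this search found. Other kinds of seed match, shorter 3' UTR forms and coding sequence were not searched.
Ntrk3 site: gcagtacttcTGGTGCTaaatactacag
Sort1 site: accgcataccTGGTGCTgtccctgggct
Long 3' UTRs often hold a match: 13.5% of 20126 searched genes had one, but 34.3% of the 2332 with a 3' UTR of 3000 to 6000 nt and 70.3% of the 64 with one of 10000 nt or more. A match is a description of letters and was not tested for binding.

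Levels are given in FPKM, as the authors deposited them. In general these are fragment counts divided by transcript length and by the library's mapped fragments. How the libraries were scaled here is not stated. Since length is divided out, the genes can be ordered. Over all 8 libraries Ntrk2 averaged 73.7 FPKM, Sort1 69.3, Ntrk3 17.4, Bdnf 4.53, Ntf3 0.87, Ngfr 0.314 and Ntf5 0.0433. Ntrk2 and Sort1 did not differ beyond their spread, since Ntrk2 was the higher in 6 of 8 libraries. Sort1 stood 3.98 times above Ntrk3, and Ntrk3 3.84 times above Bdnf, with separate ranges in both steps. Bdnf stood above Ntf3 in every library, by 5.21 times in the mean, whereas Ntf3 exceeded Ngfr in 6 of 8. The kinase receptors and sortilin were thus listed at higher levels than any of the 3 ligands in every library. Whole-gene values do not separate transcript forms, which matters most for Ntrk2, whose 7 annotated protein-coding transcripts include, as is known, forms that encode a receptor without the kinase.

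Across the libraries 12538 to 12769 rows stood at 1 FPKM or more, and libraries of 1 group were about as alike (Pearson r of log2 values from 0.932 to 0.963) as libraries of different groups (from 0.931 to 0.957). The total number of fragments per library was not used here, so the counting error of low values is unknown. The tissue label was met by its markers: the summed level of 6 excitatory neuron markers was 3566 to 3885 FPKM in anti-miR-29a and 3416 to 3759 FPKM in scrambled libraries. In bulk tissue, fewer cells of a type and less RNA per cell cannot be told apart.

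**Figure D1:**
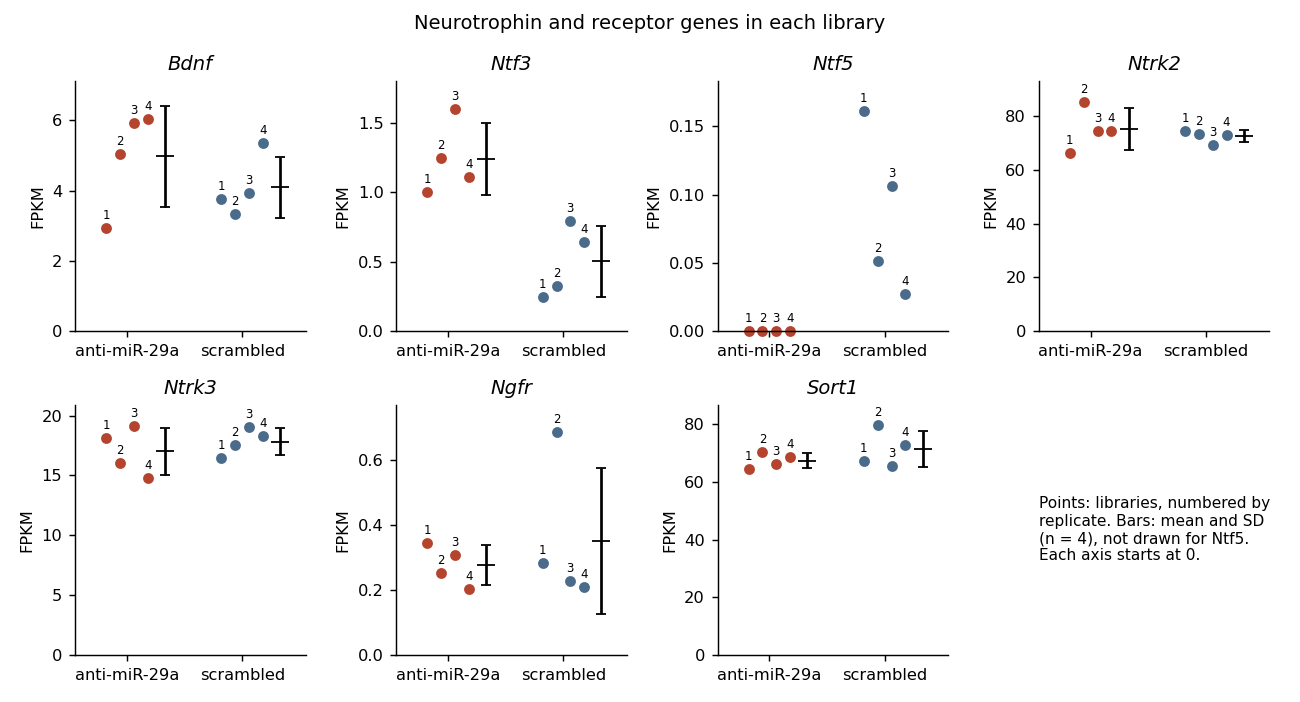
FPKM of the 7 genes in each library, anti-miR-29a on the left and scrambled on the right of every panel, with points numbered by replicate and the mean and SD (n = 4) drawn except for Ntf5. Ntf3 is the gene whose anti-miR-29a libraries (1.00 to 1.60 FPKM) all lie above its scrambled ones (0.248 to 0.794 FPKM), and Ntf5 is listed at 0 in all 4 anti-miR-29a libraries.

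Of the members, 5 had a mean of at least 0.5 FPKM and entered the comparison between anti-miR-29a and scrambled libraries, which asks what changes when miR-29a is blocked. None of the 5 passed limma after Benjamini-Hochberg adjustment over all 13912 tested rows, of which 0.0144% were called. At an unadjusted p under 0.05, 1 of the 5 was higher (Ntf3) and 0 were lower, where 7.54% of all tested rows were higher and 3.18% lower. The groups did not overlap in that same gene, against 4.02% of tested rows that lay higher without overlap and 2.29% lower.

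Ntf3 encodes NT-3, the ligand of TrkC. Its level was 1.00, 1.24, 1.60 and 1.11 FPKM in anti-miR-29a replicates 1 to 4, and 0.248, 0.324, 0.794 and 0.64 FPKM in scrambled replicates 1 to 4. Every anti-miR-29a library lay above every scrambled one, and scrambled replicates 1 and 2 were the lowest. The means were 1.24 ± 0.26 FPKM in anti-miR-29a and 0.502 ± 0.259 FPKM in scrambled libraries (SD, n = 4 each). On the log2(FPKM + 0.1) scale the difference was 1.24 with a standard error of 0.353, a 2.36-fold level with a 95% interval of 1.37 to 4.07. That scale understates the change of a low gene. Ntf3 did not pass over the whole table (limma, adjusted p = 0.267). The exact two-sided permutation test gave p = 0.0286, the smallest that 70 relabellings of the libraries allow. That value restates that the groups do not overlap, and it was not adjusted over genes. The size depended on the pseudocount, with a log2 difference of 0.585 at a pseudocount of 1.

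Bdnf, the ligand of TrkB and a gene that neuronal firing switches on, was measured at 2.93, 5.03, 5.91 and 6.03 FPKM in anti-miR-29a libraries and at 3.76, 3.33, 3.93 and 5.34 FPKM in scrambled libraries. The groups overlapped: anti-miR-29a replicate 1 was the lowest of all 8, and scrambled replicate 4 lay among the 3 higher anti-miR-29a libraries. The log2 difference was 0.24 ± 0.231 (standard error), with a 95% interval of -0.27 to 0.76 (limma, adjusted p = 0.736), and the exact permutation test gave p = 0.457. Without anti-miR-29a replicate 1 the difference was 0.476 (limma, adjusted p = 0.361), and without anti-miR-29a replicate 3 or 4 it was 0.146 or 0.136. Without scrambled replicate 2 or 4 it was 0.156 or 0.377. The interval runs from a fall to 0.83 to an increase to 1.69 times the scrambled level, so changes within that range are not excluded. Bdnf, like Ntrk2, Ntrk3 and Sort1, overlaps an annotated antisense gene, and because the library kit does not mark strand, reads from such a gene cannot be told apart from its own.

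Ntf5 encodes NT-4, the second ligand of TrkB. It was listed at 0 in all 4 anti-miR-29a libraries, and at 0.162, 0.0514, 0.106 and 0.0271 FPKM in scrambled replicates 1 to 4. The scrambled values stood at 5.95, 1.90, 3.92 and 1.00 times the lowest of them. How many fragments these values stand for is not known. The gene was too low for the whole-table fit. With no filter on low values it did not pass (limma, adjusted p = 0.448). The exact permutation test over the 8 libraries gave p = 0.0286, the smallest that 70 relabellings allow. Any gene whose groups do not overlap gets that value, so it adds nothing to the listed levels. No fold is stated, because one group was at 0.

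No difference was detected in the genes of the kinase receptors. Ntrk2 was at 66.3, 85.1, 74.3 and 74.4 FPKM in anti-miR-29a libraries and at 74.5, 73.1, 69.3 and 72.7 FPKM in scrambled libraries. Its highest and lowest values were both in the anti-miR-29a group, in replicates 2 and 1, so the scrambled range lay within the other. Its log2 difference was 0.05 with a 95% interval of -0.11 to 0.20, that is 0.927 to 1.15 times the scrambled level (limma, adjusted p = 0.842), and the exact permutation test gave p = 0.657. It was -0.016 without anti-miR-29a replicate 2 and -0.006 under quantile normalization. Astrocytes also carry Ntrk2, and the sum of 6 astrocyte markers overlapped between the groups, at 452 to 559 FPKM in anti-miR-29a and 478 to 535 FPKM in scrambled libraries. Of these 6 markers, 3 had a log2 difference above 0 and 3 below. At an unadjusted p under 0.05 (limma), 1 was higher and 0 lower, against 7.54% and 3.18% of all tested rows.

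Ntrk3, the receptor of NT-3, had 18.1, 16.1, 19.1 and 14.8 FPKM in anti-miR-29a libraries and 16.4, 17.5, 19.0 and 18.2 FPKM in scrambled libraries. The groups overlapped, and anti-miR-29a replicates 4 and 2 were the lowest. The log2 difference was -0.07 with a 95% interval of -0.27 to 0.13 (limma, adjusted p = 0.815; exact permutation p = 0.486), and with a trend on transcript length and GC content removed it was 0.084. Whether the site in its 3' UTR bears on this level was not tested. The level of Ntf3 divided by that of Ntrk3, ligand RNA over receptor RNA, was 0.0552, 0.0774, 0.0836 and 0.075 in anti-miR-29a libraries and 0.0151, 0.0185, 0.0417 and 0.0351 in scrambled libraries, which do not overlap (exact permutation p = 0.0286, the smallest possible). Adjusted over the 5 ratios computed, the exact permutation p was 0.143. Since Ntrk3 overlapped between the groups and Ntf3 did not, this ratio largely restates the difference in Ntf3 and is no separate result. The ratio of Ntf3 to Bdnf overlapped, with means of 0.261 ± 0.0653 in anti-miR-29a and 0.121 ± 0.0582 in scrambled libraries (SD, n = 4 each; exact permutation p = 0.0571). For the other 3 ratios, Ntrk2 to Ntrk3, Sort1 to Ntrk2 and Bdnf to Ntrk2, the exact permutation p was 0.457, 0.171 and 0.429.

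Sort1 encodes sortilin, which carries proneurotrophins to the secretory route and binds them together with p75. Its level was 64.3, 70.3, 66.3 and 68.5 FPKM in anti-miR-29a libraries and 67.3, 79.5, 65.5 and 72.8 FPKM in scrambled libraries. The groups overlapped, with scrambled replicate 2 the highest of all. The log2 difference was -0.08 with a 95% interval of -0.22 to 0.07 (limma, adjusted p = 0.701; exact permutation p = 0.314). As for Ntrk3, a part of its site in this level was not tested.

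Ngfr, the p75 receptor gene, was low in this tissue, at 0.343, 0.252, 0.308 and 0.202 FPKM in anti-miR-29a libraries and 0.282, 0.685, 0.228 and 0.21 FPKM in scrambled libraries. Scrambled replicate 2 stood far above the other 7, which ran from 0.202 to 0.343 FPKM. With no filter on low values the log2 difference was -0.17 (limma, adjusted p = 1.0; exact permutation p = 0.8), and 0.137 without scrambled replicate 2. In the brain p75 is known from cholinergic neurons of the basal forebrain, and also from some vascular and glial cells. The cholinergic neuron markers Chat, Slc5a7 and Slc18a3 were each under 0.5 FPKM in every library, with a sum of 0.116 to 0.549 FPKM in anti-miR-29a and 0.198 to 0.373 FPKM in scrambled libraries. In scrambled replicate 2, where Ngfr was highest, the summed markers were 21.0 FPKM for meningeal and perivascular fibroblasts, 25.8 for oligodendrocyte precursors and 675 for interneurons, each the lowest of the 8 libraries. The sums of mural cells (53.1 FPKM), endothelium (34.1), astrocytes (508), oligodendrocytes (1000), microglia (197) and excitatory neurons (3759) were within the range of the other 7. The part of any of these cells in the Ngfr value was not tested.

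**Figure D2:**
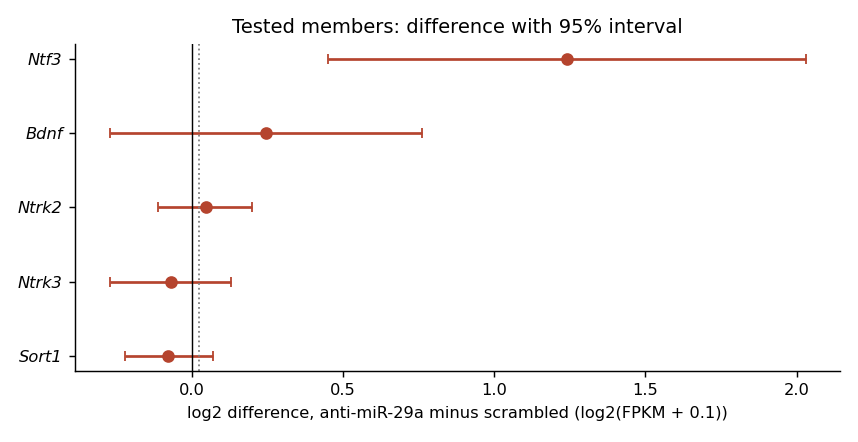
Log2 difference of the 5 tested members, anti-miR-29a minus scrambled on the log2(FPKM + 0.1) scale, with 95% intervals from limma. The solid line marks 0 and the dotted line the median of all tested rows, 0.0259. The interval of Ntf3 (0.45 to 2.03) does not reach 0, and those of the other 4 span it.

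Among the members, log2 levels over the 8 libraries correlated most between Bdnf and Ntf3 (Pearson r = 0.54), Bdnf and Ntrk2 (r = 0.53) and, inversely, Ntrk2 and Ntrk3 (r = -0.52). The points share library, depth and group, and these values only describe 8 libraries. By the same measure, the genes most like Ntf3 among 12711 searched were Atp5d, a subunit of ATP synthase (r = 0.967), and Spata2l (r = 0.965). Spata2l had a mean of 19.7 ± 0.715 FPKM in anti-miR-29a and 13.9 ± 1.41 FPKM in scrambled libraries (SD, n = 4 each). The one most like Bdnf was Phkb, a phosphorylase kinase subunit (r = 0.994). The closest to Ntrk2 were Lrfn3 (r = 0.975) and Parp1 (r = 0.944), to Ntrk3 Tbc1d17 (r = 0.913) and Aatf (r = 0.906), and to Sort1 Ndrg4 (r = 0.977) and Oprd1 (r = 0.964). With so many genes searched over 8 libraries, high values of r are to be found by their number alone.

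Partners and relatives of the receptors formed a list of 10 tested genes, with 5 above 0, 5 below and a median log2 difference of 0.019, against 56.6% above 0 and a median of 0.0259 over all tested rows. None passed over all rows (limma). At an unadjusted p under 0.05 there were 0 higher and 0 lower, against 7.54% and 3.18% of all tested rows. Under median centring, quantile normalization or no filter on low values there were 0 and 1. Without scrambled replicate 1, scrambled replicate 2 or anti-miR-29a replicate 1 there were 1 and 0. Kidins220, a scaffold protein that Trk receptors phosphorylate, had 32.8 ± 1.83 FPKM in anti-miR-29a and 35.5 ± 1.26 FPKM in scrambled libraries, which is -0.11 on the log2 scale (limma, adjusted p = 0.502). Its groups did not overlap, the 1 such gene of the 10, where 2.29% of all tested rows lay lower without overlap. Islr2, a Trk-interacting membrane protein, differed by 0.17, and Rtn4r and Lingo1, the Nogo receptor and its partner, which pair with p75, by 0.07 and 0.06.

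Markers of cells of the meninges and vessels, and of microglia, are given beside Ntf3, a gene of low level. The sum of 7 meningeal and perivascular fibroblast markers was 46.9, 61.2, 30.3 and 56.8 FPKM in anti-miR-29a libraries and 38.2, 21.0, 23.8 and 38.8 FPKM in scrambled libraries. These ranges overlap, but all 6 tested markers of that list had a positive log2 difference, as did 56.6% of all tested rows. The median of the 6 was 0.633. At an unadjusted p under 0.05 (limma), 3 were higher and 0 lower, against 7.54% and 3.18% of all tested rows. None passed over all rows (limma). The sums are listed in the order of the replicates, as the levels of Ntf3 are above. Summed mural cell markers were 49.1 to 73.2 FPKM in anti-miR-29a and 51.4 to 62.8 FPKM in scrambled libraries. Those of endothelium were 38.5 to 45.6 FPKM in anti-miR-29a and 33.6 to 43.1 FPKM in scrambled libraries. Those of microglia were 218 to 280 FPKM in anti-miR-29a and 171 to 267 FPKM in scrambled libraries. The part of these cells in the Ntf3 difference was not tested.

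Genes that cut, package and sort neurotrophins showed no common direction. Of 17 tested genes 9 were above 0 and 8 below, the median was 0.003, none passed over all rows (limma), and 1 was higher and 1 lower at an unadjusted p under 0.05, against 7.54% and 3.18% of all tested rows. These were Gga1, an adaptor that sorts cargo such as sortilin, at 24.4 ± 0.489 FPKM in anti-miR-29a and 21.3 ± 0.922 FPKM in scrambled libraries, and Sorl1, a relative of sortilin, at 14.3 ± 2.9 FPKM in anti-miR-29a and 19.0 ± 2.63 FPKM in scrambled libraries (SD, n = 4 each). Their adjusted p was 0.266 and 0.381 (limma). Plat, the tissue plasminogen activator, whose product plasmin cuts proBDNF, differed by 0.29 (limma, adjusted p = 0.501), and Pcsk7, a proprotein convertase gene, by 0.19 (adjusted p = 0.586).

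Among 39 genes of the Trk adaptors and the Ras, PI3 kinase and phospholipase C arms, 17 were above 0 and 22 below, with a median of -0.013. None passed over all rows (limma). At an unadjusted p under 0.05, 2 were higher and 5 lower (7.54% and 3.18% of all tested rows). Without overlap, 1 lay higher and 6 lower, where 4.02% and 2.29% of all tested rows did so. The 4 of smallest p were all lower. Rps6ka2, a ribosomal S6 kinase gene, averaged 11.2 ± 0.669 FPKM in anti-miR-29a and 13.5 ± 0.823 FPKM in scrambled libraries. Sos2, a Ras exchange factor, averaged 5.02 ± 0.225 FPKM in anti-miR-29a and 6.19 ± 0.283 FPKM in scrambled libraries. Shc3, a neuronal Trk adaptor, averaged 11.8 ± 0.541 FPKM in anti-miR-29a and 15.1 ± 2.52 FPKM in scrambled libraries (SD, n = 4 each). These 3 and Braf, a Ras effector kinase gene, had log2 differences of -0.27, -0.30, -0.35 and -0.18, with adjusted p of 0.265, 0.267, 0.316 and 0.369 (limma). Under quantile normalization 0 were higher and 8 lower, and under median centring 0 and 7. Taking out the trend on length and GC content together with a replicate block left 1 higher and 2 lower.

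The p75 adaptors and effectors, 17 tested genes, had a median of 0.078 with 11 above 0. None passed over all rows (limma), and 2 were higher and 0 lower at an unadjusted p under 0.05, against 7.54% and 3.18% of all tested rows. These were Psenen, a subunit of the gamma-secretase that cuts p75, at 62.4 ± 4.6 FPKM in anti-miR-29a and 54.1 ± 4.22 FPKM in scrambled libraries, and Ngfrap1, a small p75-binding protein, at 171 ± 8.81 FPKM in anti-miR-29a and 156 ± 8 FPKM in scrambled libraries (SD, n = 4 each). Both overlapped between groups, and their adjusted p was 0.351 and 0.414 (limma). Rhoa, a GTPase that p75 acts on, and Bex1 differed by 0.14 and 0.18.

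Genes that BDNF is known to induce in neurons had a median of 0.356, with 13 of 14 above 0. None passed over all rows (limma), 8 were higher at an unadjusted p under 0.05 and 0 lower (7.54% and 3.18% of all tested rows), and 6 lay higher without overlap (4.02%). Neuronal firing induces most of them as well, and they were chosen with earlier results of these data known, so the list is no independent readout of BDNF. Dusp6, a phosphatase that limits ERK, averaged 25.0 ± 2.55 FPKM in anti-miR-29a and 18.2 ± 2.77 FPKM in scrambled libraries. Arc, a synaptic plasticity gene, averaged 191 ± 28.1 FPKM in anti-miR-29a and 111 ± 36.9 FPKM in scrambled libraries. Junb, an AP-1 subunit gene, averaged 115 ± 15.1 FPKM in anti-miR-29a and 72.8 ± 21.7 FPKM in scrambled libraries (SD, n = 4 each). The ERK pathway inhibitor gene Spry4 differed by 0.53, and these 4 genes had adjusted p of 0.234, 0.268, 0.273 and 0.314 in the order named (limma). The other 10 genes, given in full although outside the naming rule, ran from -0.16 for Homer1 to 1.04 for Egr2. Between them stood Fos at 0.82, Egr1 at 0.47, Npy and Dusp4 at 0.25, Spry2 at 0.24, Egr3 at 0.10, Vgf at 0.08 and Nptx2 at 0.07, and of all 10 only Fos and Egr1 lay higher without overlap. With any 1 library left out, 7 to 9 genes of the list were higher at an unadjusted p under 0.05, with a median of 0.275 when scrambled replicate 1 was left out and of 0.513 when scrambled replicate 2 was.

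Of 11 tested regulators of Bdnf transcription, 4 were above 0 and 7 below, with a median of -0.035. Without scrambled replicate 3 or 2 the median was 0.015 or 0.006, over 12 genes, since 1 more then met the filter on low values. None passed over all rows (limma), and 2 were higher and 1 lower at an unadjusted p under 0.05, against 7.54% and 3.18% of all tested rows. All 3 lay without overlap, as did 4.02% of all tested rows higher and 2.29% lower. Usf1 and Usf2, which encode E-box binding factors, stood higher. Usf1 was at 25.8 ± 1.13 FPKM in anti-miR-29a and 21.0 ± 1.74 FPKM in scrambled libraries, and Usf2 at 38.9 ± 0.7 FPKM in anti-miR-29a and 35.6 ± 1.57 FPKM in scrambled libraries (SD, n = 4 each). Mef2a and Mef2c, which encode activity-regulated transcription factors, stood lower. Mef2a was at 17.9 ± 0.51 FPKM in anti-miR-29a and 20.2 ± 0.882 FPKM in scrambled libraries, and Mef2c, whose groups overlapped, at 92.9 ± 1.17 FPKM in anti-miR-29a and 103 ± 11 FPKM in scrambled libraries (SD, n = 4 each). Adjusted p was 0.22 for Usf1, 0.408 for Usf2, 0.341 for Mef2a and 0.481 for Mef2c (limma). At the same unadjusted threshold 1 regulator was higher and 3 lower under quantile normalization, and 1 higher and 0 lower without the length and GC trend.

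**Figure D3:**
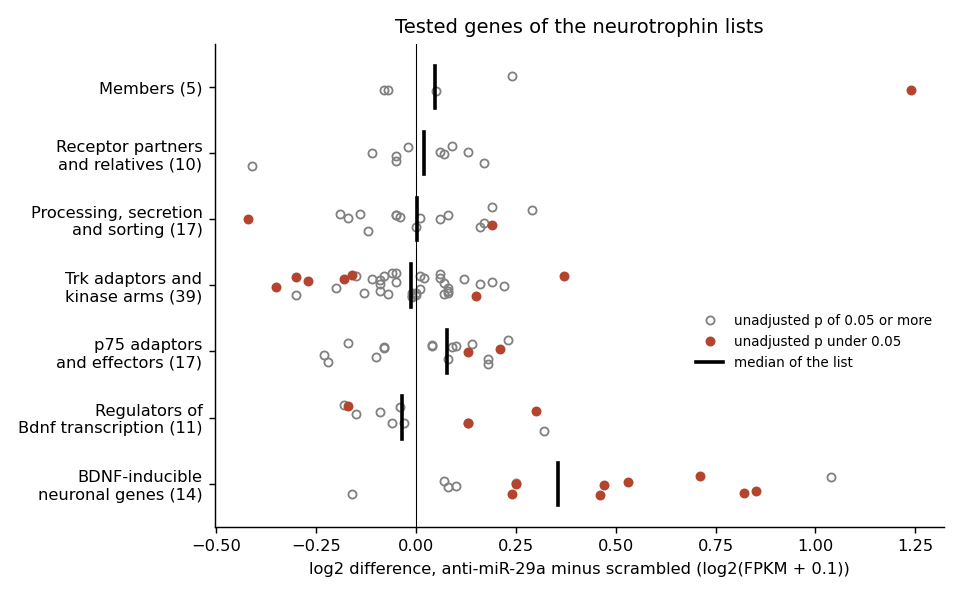
Log2 difference of every tested gene in the members and the 6 other lists, anti-miR-29a minus scrambled, with the number of genes in brackets. Filled points have an unadjusted p under 0.05 and black bars are the list medians, which run from -0.035 for regulators of Bdnf transcription to 0.356 for BDNF-inducible genes.

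**Figure D4:**
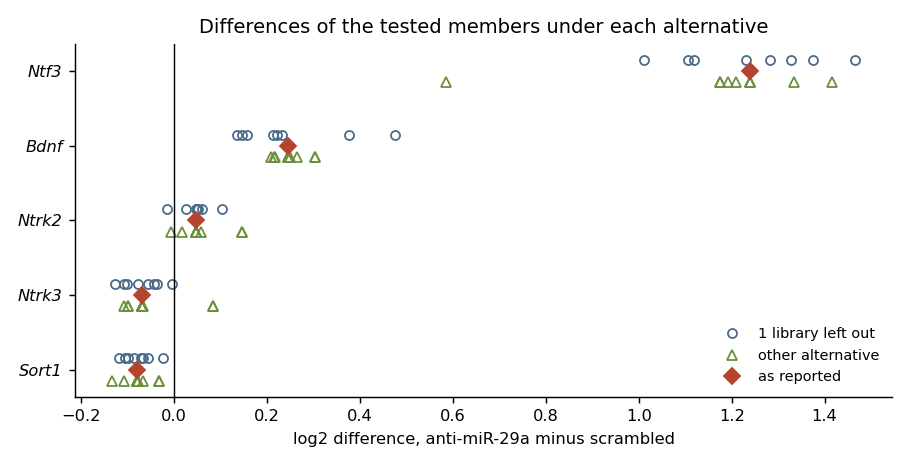
Log2 differences of the 5 tested members as reported (diamonds), with 1 library left out (circles) and under the other alternatives (triangles). Ntf3 stays above 0 throughout, from 0.585 to 1.466, while the points of Ntrk2 and Ntrk3 fall on both sides of 0.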

How the data were processed

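RNA was measured by sequencing in 4 anti-miR-29a and 4 scrambled samples. Per the labels' protocols, RNA extracted with a phenol and guanidine reagent went into a library kit (TruSeq RNA) without strand marking. The deposited values are FPKM made by the authors. CASAVA 1.8.2, Bowtie, Cuffnorm and the build mm10 are named in the submitters' processing notes, while no source used here gives the annotation, the filters or how Cuffnorm scaled the libraries.

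The 13912 rows averaging 0.5 FPKM or more over all libraries were fitted as log2(FPKM + 0.1) in limma 3.58.1 (R 4.3.3). The model held the group alone, and prior variances followed a trend on level. Two-sided p-values were adjusted by Benjamini-Hochberg over all tested rows with a threshold of 0.05. The fit was also run on simulated data of independent normal values. These held no effects shared within a library, so that run does not bear on such effects. For single genes an exact two-sided permutation test over 70 relabellings was added. Ngfr and Ntf5, below the filter, were read from a fit with no filter.

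The members and lists were chosen with earlier results of these data known, and some genes are not reported here. Besides members, the up to 4 tested genes of smallest p in each list are named, and the 2 genes of highest Pearson correlation with each tested member, among genes averaging 1 FPKM or more. Cell type markers and the remaining BDNF-inducible genes, given in full, are named outside this rule. Positions, 3' UTRs, transcript lengths and GC content came from GENCODE M21 (GRCm38, as mm10), which matched 99.2% of tested rows. Alternatives were other pseudocounts, filters and scalings, sample weights, robust empirical Bayes, a replicate block, removal of a length and GC trend, and each library left out.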

Additional observations from a re-analysis of the deposited data

Results flagged for a closer look

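Of 80 groups of 4 libraries examined over 40 named genes, 7 held a library that stood apart from the other 3 by Dixon's criterion, which chance gives in about 1 group in 20. Ngfr was at 0.685 FPKM in scrambled replicate 2, the one member with such a value. Gga1 was at 23.6 FPKM in anti-miR-29a replicate 4, the lowest of its group, and at 22.7 FPKM in scrambled replicate 3, the highest of its group. Kidins220 was at 37.4 FPKM in scrambled replicate 4, above the others. Shc3 was at 11 FPKM in anti-miR-29a replicate 1, below the others. Usf1 was at 27.5 FPKM in anti-miR-29a replicate 1, above the others. Lrfn3 was at 6.37 FPKM in scrambled replicate 3, below the others. None of these values was traced further.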

How the results depend on the processing

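No member passed the threshold under any alternative. Ntf3, Bdnf and Sort1 kept their direction in each that held them: Ntf3 ran from 0.585 to 1.466 log2 units (adjusted p 0.23 to 0.544, limma), Bdnf from 0.136 to 0.476 and Sort1 from -0.133 to -0.025. Ngfr and Ntf5 were read from 13 fits each with no filter on low values, chosen after seeing the data. Ntf5 was lower in its 13, but that direction was given in advance. Every anti-miR-29a value of Ntf5 was 0 and every scrambled value was above 0. Median centring, sample weights and removal of the length and GC trend were not run for these 2 genes. Ntrk2 turned to -0.006 under quantile normalization, and with 1 library left out ran from -0.016 to 0.104. Ntrk3 turned to 0.084 with the length and GC trend removed, with or without the replicate block, and ran from -0.128 to -0.004 with 1 library left out. Ngfr ran from -0.31 to 0.137 with 1 library left out. The cause was not tested. At a minimum mean of 5 FPKM, Bdnf and Ntf3 were not in the fit.

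Over all rows limma called 2 genes, 10 with robust empirical Bayes, 1 with no filter on low values, 1 at a mean of at least 5 FPKM, 0 with the replicate block, 0 with the length and GC trend removed, 0 with both, and 1 to 4 with 1 library left out. The replicate numbers showed no sign of pairing the samples. Same-numbered libraries deviated together with r of -0.106 to 0.0143, and 0 libraries correlated best with their own number. With so few libraries this does not exclude a pairing. Under the replicate block Ntf3 stood at 1.24 (adjusted p = 0.347) and Bdnf at 0.245 (adjusted p = 0.661). Low levels limit Ntf3, Ngfr and Ntf5 most, since fragment numbers were not used here.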
